A study of Mus musculus with 77 samples.

Results

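The 10 genes described here carry calcium signals in neurons or end them. Ppp3ca and Ppp3cb encode catalytic subunits of the phosphatase calcineurin, Ppp3r1 its regulatory subunit and Rcan2 a protein that binds calcineurin and restrains it. Camk2a, Camk2b and Camk4 encode calcium/calmodulin-dependent protein kinases, Atp2b1 and Atp2b2 pumps that move calcium out across the plasma membrane, and Itpr1 the inositol trisphosphate receptor that releases calcium from the endoplasmic reticulum. They were picked by symbol, with earlier results of these data known. All 10 were among the 16587 genes measured in AGO2-bound mRNA of the BNST, the bed nucleus of the stria terminalis, which regulates anxiety, and 7 of them were among the 13084 genes measured in blood, which did not include Rcan2, Camk2a and Atp2b2.

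The study exposed male mice, 8 weeks old, of the inbred strains C57BL/6Crl (B6) and DBA/2Crl (D2) to chronic social defeat stress (CSDS) and divided the defeated mice by their social interaction, relative to controls of their own strain, into resilient and susceptible animals. Strain names follow the labels here, and the study writes them as C57BL/6NCrl and DBA/2NCrl. Tissue was taken 6 to 8 days after the last defeat. The AGO2 libraries came from B6 mice only, with 5 control, 5 resilient and 4 susceptible pools of 3 BNSTs each, so that differences between single mice within a pool are not seen. The blood libraries came from single mice, with 5 control, 5 resilient and 5 susceptible B6 mice and 5 control and 5 susceptible D2 mice. Controls of both strains were not defeated.

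When calcium enters a neuron it binds calmodulin, which switches on both calcineurin and the CaM kinases. Calcineurin removes phosphate from receptors, channels and NFAT transcription factors, whereas the CaM kinases add phosphate, with Camk2a and Camk2b forming the abundant synaptic kinase and Camk4 acting largely in the nucleus. Argonaute 2 (AGO2) holds a miRNA and the mRNA that the miRNA pairs with, so mRNA recovered with an antibody against AGO2 depends both on how much of a transcript a tissue holds and on how much of it is bound. These contributions cannot be told apart here, and neither can fewer cells of a type and less RNA per cell.

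The study pairs 3 of the genes with AGO2-bound miRNAs, Ppp3ca with miR-99b-5p, Camk2a with miR-92b-3p and miR-1982-3p, and Rcan2 with miR-7667-3p. Their mature sequences are shown because base pairing through the seed, bases 2 to 8, is the usual way by which a miRNA finds a target. The sequences are those of RefSeq on GRCm38, written 5′ to 3′ with the seed in capitals.
mmu-miR-99b-5p (chr17:17830194-17830215, plus strand): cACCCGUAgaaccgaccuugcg
mmu-miR-92b-3p (chr3:89227126-89227147, minus strand): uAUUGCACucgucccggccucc
mmu-miR-1982-3p (chr10:80828848-80828870, plus strand): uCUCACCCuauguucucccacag
mmu-miR-7667-3p (chr17:29595579-29595600, plus strand): aGGGACUGcagagauggcacug

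The 4 seeds differ from each other. Their reverse complements were searched on the sense strand of the longest annotated 3′ UTR of 13896 measured genes. The match to miR-99b-5p, TACGGGT, was found in 1.55% of these UTRs and, of the 10 genes, in that of Ppp3ca. That single match starts at base 1405 of a UTR of 2502 bases (chr3:136936630-136936636, plus strand) and is shown in capitals with 8 bases on either side.
Ppp3ca 3′ UTR: atattagtTACGGGTtactactg
The match to miR-92b-3p, GTGCAAT, was found in 8.3% of all UTRs searched, and Camk2a and Itpr1 held 1 each. The match to miR-1982-3p, GGGTGAG, was found in 12.1% of UTRs and in that of Atp2b1, but not in that of Camk2a. The match to miR-7667-3p, CAGTCCC, was found in 14.1% of UTRs and in none of the 10 genes, Rcan2 included. A match is a run of letters and not a measured binding site. Shorter matches and other UTRs of a gene were not searched, so a gene without a match here may still hold another site.

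Reads per AGO2 mRNA pool, recovered from the deposited log2 values, ranged from 3701281 to 10659882, and each of the 10 genes had between 330 and 10771 reads in every pool. Reads per blood library ranged from 9751603 to 15878495, and the 7 genes had between 3 and 2909 reads there. Levels are given as log2 CPM, the logarithm of a gene's count scaled to the size of its library, and differences as differences of mean log2 CPM. Following the criteria of the study, genes with an unadjusted limma p under 0.05 whose levels differed at least 1.2-fold were called. Adjusted p-values are Benjamini-Hochberg values from limma over all genes of the data set. Exact permutation tests over pools or mice were two-sided, and the smallest p that they can give is 0.00794. Apart from pooling, the labels do not say how independent the samples of a group are, and p-values measure the spread between these samples.

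Per kilobase of exon, 9 of the 10 genes stood between the 94.28 and the 99.53 percentile of 16535 genes in the AGO2 control pools, and Ppp3cb stood at the 72.14 percentile. Camk4 had the highest level, with 112 ± 12.3 CPM per kilobase (SD, n = 5). Atp2b2 (84.9 ± 9.11), Rcan2 (80.0 ± 9.05), Camk2a (76.4 ± 8.98), Ppp3ca (73.6 ± 15.9) and Atp2b1 (69.6 ± 6.18) followed on this scale, with control pools that overlapped from each gene to the next in order. Camk4 and Atp2b2 overlapped as well. Ppp3r1 stood at 56.2 ± 5.18 CPM per kilobase, below every pool of Atp2b1, and overlapped Camk2b at 45.7 ± 7.58. Itpr1 (33.1 ± 4.50) and then Ppp3cb (12.6 ± 0.803) each lay below all pools of the gene before them. Of the catalytic subunit genes described here, Ppp3ca was thus above Ppp3cb in every control pool. Ppp3ca overlapped Ppp3r1, with 60.3 to 100.9 against 49.6 to 61.6 CPM per kilobase in controls, and in susceptible pools their means were nearly equal (39.6 ± 14.6 and 39.5 ± 7.69).

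Ppp3ca (ENSMUSG00000028161, chromosome 3 from 136670124 to 136937727, plus strand of GRCm38) stood at 9.51, 9.37, 9.23, 9.98 and 9.40 log2 CPM in control pools 1 to 5. In resilient pools 1 to 5 it stood at 8.78, 8.61, 9.10, 9.09 and 9.30 log2 CPM, and in susceptible pools 1 to 4 at 9.23, 8.26, 8.12 and 8.63. All 4 susceptible pools lay below all control pools, although susceptible pool 1 and the lowest control pool were nearly equal, and 1 resilient pool lay within the control range. Ppp3ca was 0.94 lower in susceptible pools than in controls (SE 0.20, 95% interval -1.36 to -0.52, a fold of 0.522, adjusted p = 0.0198, exact permutation p = 0.00794) and was called. In resilient pools it was 0.52 lower (SE 0.19, 95% interval -0.92 to -0.12, adjusted p = 0.136, exact permutation p = 0.0159) and was called as well. Both comparisons use the same control pools. Group means were 9.50 ± 0.29 log2 CPM in controls, 8.98 ± 0.27 in resilient and 8.56 ± 0.50 in susceptible pools (SD).

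The regulatory subunit gene Ppp3r1 (ENSMUSG00000033953, chromosome 11 from 17159263 to 17200375, plus strand) stood at 7.63, 7.63, 7.32, 7.44 and 7.45 log2 CPM in the control pools. Its resilient pools stood at 6.69, 6.76, 7.37, 7.16 and 7.00, and its susceptible pools at 7.28, 6.73, 6.74 and 7.15. Again every susceptible pool was below every control pool, and resilient pool 3 was the single resilient pool within the control range. The log2 difference from controls was -0.52 in susceptible pools (SE 0.14, adjusted p = 0.0492, exact permutation p = 0.00794) and -0.50 in resilient pools (SE 0.14, adjusted p = 0.0577, exact permutation p = 0.0159). Both were called. For Ppp3r1 the means of the defeated groups were nearly equal, at 7.00 ± 0.28 log2 CPM in resilient and 6.98 ± 0.28 in susceptible pools.

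The calcineurin regulator Rcan2 (ENSMUSG00000039601, chromosome 17 from 43801351 to 44039516, plus strand) had control values of 8.45, 8.34, 8.56, 8.64 and 8.23 log2 CPM. Its values were 8.35, 8.22, 7.76, 8.00 and 8.50 log2 CPM in resilient pools and 8.14, 7.45, 7.97 and 8.19 in susceptible pools. The susceptible pools did not overlap the controls, whereas 2 of the resilient pools lay among them. Rcan2 was called lower in susceptible pools (-0.51, SE 0.16, adjusted p = 0.0764, exact permutation p = 0.00794). In resilient pools its difference was -0.28 (SE 0.15, exact permutation p = 0.111, 95% interval -0.59 to 0.04) and was not called, although it passed the criteria without resilient pool 5 (-0.36), without susceptible pool 2 (-0.28), with voom on the recovered reads (-0.29) and after quantile normalization (-0.30).

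The second catalytic subunit gene, Ppp3cb (ENSMUSG00000021816, chromosome 14 from 20499364 to 20546573, minus strand), ranged from 6.68 to 6.91 log2 CPM in controls, from 6.42 to 6.77 in resilient and from 6.52 to 6.91 in susceptible pools. The groups overlapped, and Ppp3cb was called in neither comparison (-0.14 in resilient and -0.13 in susceptible pools, 95% intervals -0.34 to 0.06 and -0.33 to 0.08).

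**Figure D1:**
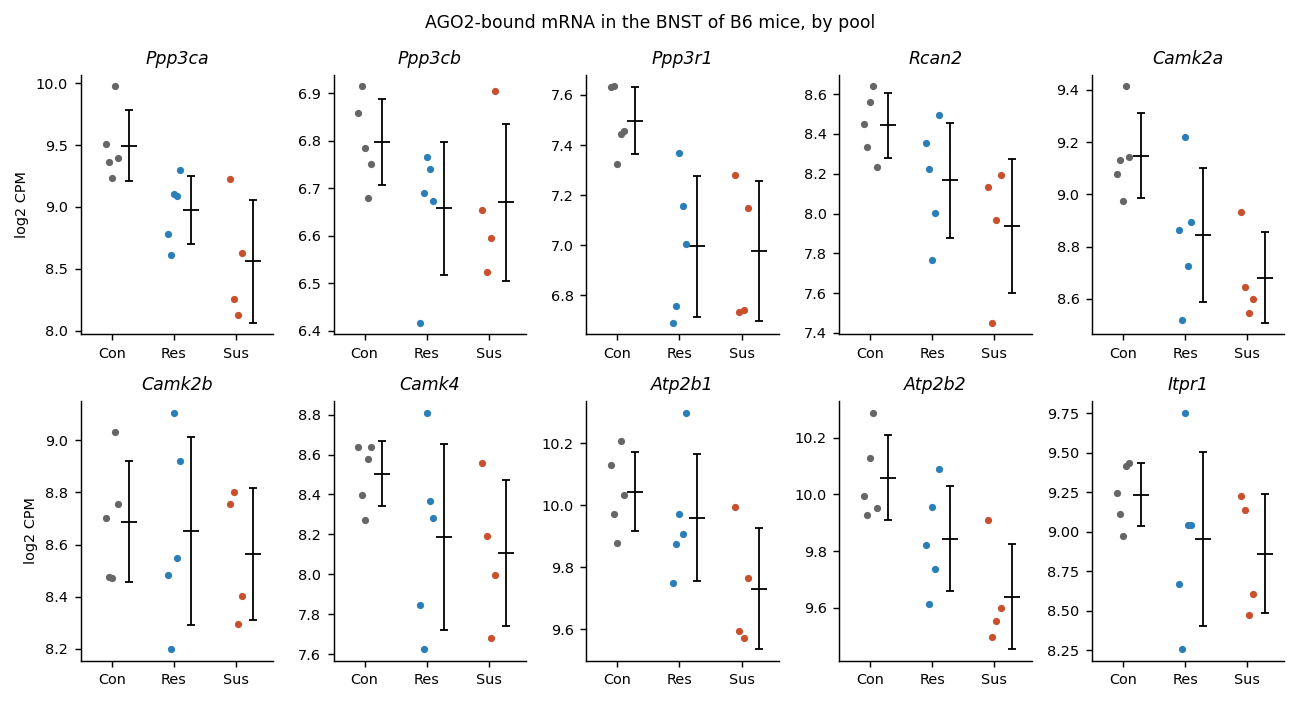
Level of each of the 10 genes in AGO2-bound mRNA (vertical axes, log2 CPM, each with its own range that does not start at 0) in 5 control (Con), 5 resilient (Res) and 4 susceptible (Sus) pools of B6 BNSTs. Points are pools, and the bars beside them give the group mean with 1 SD. The susceptible pools of Ppp3ca, Ppp3r1, Rcan2, Camk2a and Atp2b2 lie below all control pools, and the groups of Ppp3cb and Camk2b overlap.

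Among the kinases, Camk2a (ENSMUSG00000024617), the alpha subunit of CaM kinase II, stood at 9.08, 9.13, 8.98, 9.41 and 9.14 log2 CPM in the control pools. Its resilient pools had 8.86, 8.52, 9.22, 8.73 and 8.90, and its susceptible pools 8.93, 8.65, 8.55 and 8.60. All susceptible pools were below all control pools, and resilient pool 3 was higher than 4 of the 5 control pools. Camk2a was called lower in susceptible pools (-0.47, SE 0.13, adjusted p = 0.0502, exact permutation p = 0.00794). It was also called lower in resilient pools (-0.30, SE 0.12, adjusted p = 0.168, exact permutation p = 0.0635), a call that was lost without control pool 4 (-0.24), resilient pool 2 (-0.22) or resilient pool 4 (-0.27).

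Camk2b (ENSMUSG00000057897, chromosome 11 from 5969644 to 6066362, minus strand), which encodes the beta subunit of the same kinase, ranged from 8.47 to 9.03 log2 CPM in controls, from 8.199 to 9.11 in resilient and from 8.30 to 8.80 in susceptible pools. Its differences from controls were -0.04 in resilient pools (SE 0.16, 95% interval -0.37 to 0.30) and -0.12 in susceptible pools (SE 0.17, 95% interval -0.48 to 0.23), and neither was called. Camk4 (ENSMUSG00000038128) ranged from 8.27 to 8.64 log2 CPM in controls. In resilient pools it stood at 7.85, 7.63, 8.81, 8.37 and 8.28, the widest spread of any of its groups, and in susceptible pools at 8.56, 8.19, 7.68 and 7.99. Groups overlapped in both comparisons, with differences of -0.32 in resilient (SE 0.19, exact permutation p = 0.198) and -0.40 in susceptible pools (SE 0.20, exact permutation p = 0.0556). Neither was called, but Camk4 passed the criteria in resilient pools without resilient pool 3 (-0.47) or with sample weights (-0.38). In susceptible pools it passed without susceptible pool 1 (-0.55), without control pool 3 (-0.46), with sample weights (-0.43), and at -0.40 without resilient pool 2 or 3 or in a fit of the compared groups alone.

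The calcium pump gene Atp2b2 (ENSMUSG00000030302, chromosome 6 from 113743831 to 114042613, minus strand) stood at 9.995, 9.93, 10.13, 10.29 and 9.95 log2 CPM in the control pools. It stood at 9.82, 9.61, 9.96, 9.74 and 10.09 in resilient and at 9.91, 9.50, 9.55 and 9.60 in susceptible pools. The susceptible pools did not overlap the controls, although pool 1 came close to them, and 2 resilient pools lay within the control range. Atp2b2 was called lower in susceptible pools (-0.42, SE 0.12, adjusted p = 0.0546, exact permutation p = 0.00794) and not in resilient pools (-0.21, SE 0.11, exact permutation p = 0.0794), where it was called without resilient pool 5 (-0.28).

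Atp2b1 (ENSMUSG00000019943, chromosome 10 from 98914406 to 99026143, plus strand), the more widely expressed pump gene, had values of 10.13, 9.97, 9.88, 10.21 and 10.03 log2 CPM in controls, and 9.75, 9.88, 9.97, 9.91 and 10.30 in resilient pools. In susceptible pools it had 9.99, 9.60, 9.57 and 9.77, of which pool 1 lay among the controls and the others below them. Atp2b1 was called lower in susceptible pools (-0.31, SE 0.12, adjusted p = 0.146, exact permutation p = 0.0397). The call was lost without susceptible pool 2 (-0.27) or 3 (-0.26), in a fit blocked by replicate number (-0.27), with voom on the recovered reads (-0.24) and when values were quantile normalized (-0.19). In resilient pools its difference was -0.08 (SE 0.11) and was not called.

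The receptor gene Itpr1 (ENSMUSG00000030102, chromosome 6 from 108213096 to 108551109, plus strand) ranged from 8.97 to 9.43 log2 CPM in controls and from 8.47 to 9.23 in susceptible pools. Its resilient pools stood at 8.67, 8.26, 9.75, 9.04 and 9.04, so that pool 3 was above every control pool and pools 1 and 2 were below. The differences of -0.28 in resilient (SE 0.21) and -0.37 in susceptible pools (SE 0.23) were not called. Itpr1 passed the criteria in resilient pools without resilient pool 3 (-0.48), and in susceptible pools without resilient pool 3, with sample weights (-0.39) or in a fit of the compared groups alone (-0.37).

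In all, 6 of the 10 genes were called lower in susceptible pools than in controls, where 9.28% of all genes were called lower and 9.65% higher, and no gene of the 10 was called higher. The 10 genes were chosen with earlier results of these data known, and the study had paired Ppp3ca, Camk2a and Rcan2 with miRNAs from these libraries. It had also listed Ppp3ca and Atp2b1 among molecules that changed alike in at least 2 of its BNST data sets. AGO2-bound mRNA was 1 of the data sets it drew on. The counts of the 10 genes are therefore a description and not an independent test against the shares of all genes. An adjusted p under 0.05 was reached by 2 of the 10 (Ppp3ca and Ppp3r1), against 1.71% of all genes with such a p and a lower level. Over the alternatives run, the adjusted p of limma ranged from 0.00284 to 0.0945 for Ppp3ca and from 0.0148 to 0.186 for Ppp3r1. Pools did not overlap for 5 of the 10, against 5.05% of all genes with every susceptible pool below every control pool. In resilient pools 3 of the 10 were called lower, where 9.04% of all genes were called lower and 8.65% higher. None of the 10 reached an adjusted p under 0.05 there, against 0.633% of all genes in that direction, and 0 had resilient pools that were all below the controls, against 2.18%. The mean was below the control mean for all 10 genes in both defeated groups, and the median difference of the 10 was -0.28 in resilient pools (-0.02 over all genes) and -0.41 in susceptible pools (-0.01 over all genes). Scaling to the recovered reads moved the differences from controls by a median of 0.07 over all genes in susceptible pools and -0.0058 in resilient pools. Differences of that size depend on the scaling.

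**Figure D2:**
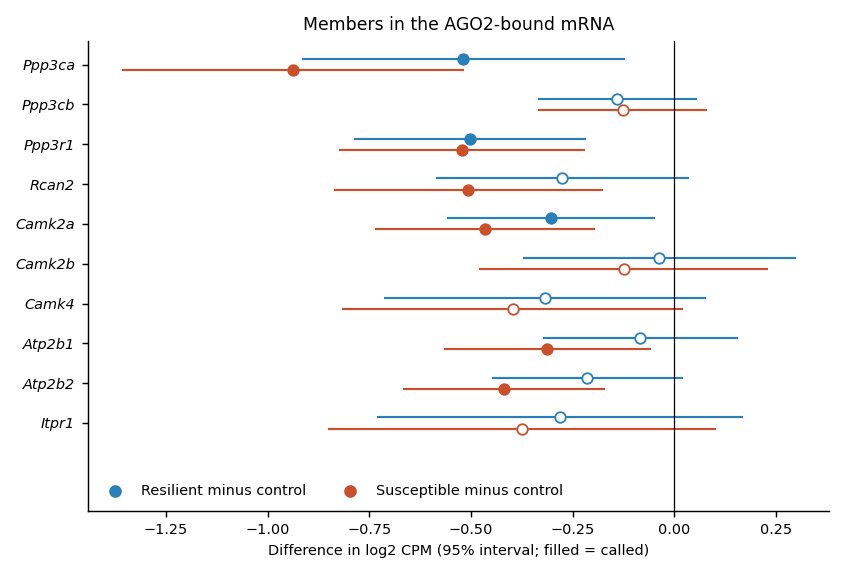
Difference from the control pools in mean log2 CPM (horizontal axis) for each of the 10 genes in resilient (blue) and susceptible (orange) pools, with 95% intervals from limma. Filled points were called. The 10 susceptible differences lie between -0.94 (Ppp3ca) and -0.12 (Camk2b), and the calls are 3 in resilient and 6 in susceptible pools.

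Susceptible pools were also compared directly with resilient pools. None of the 10 genes was called, where 2.14% of all genes were called in either direction, and limma gave 0 of the 10 an unadjusted p under 0.05. The largest difference was that of Ppp3ca (-0.42, SE 0.20, 95% interval -0.84 to 0.0017, exact permutation p = 0.167), whose pools overlapped, with susceptible pools 1 and 4 above the lowest resilient pool. Ppp3ca was called with sample weights (-0.44). It was also called when control pool 4 was left out (-0.42), and the same held for resilient pool 1 (-0.47) or 2 (-0.51) and for susceptible pool 1 (-0.64). The pump genes had differences of -0.23 (Atp2b1, 95% interval -0.48 to 0.03) and -0.20 (Atp2b2, 95% interval -0.45 to 0.05), and both were called without susceptible pool 1 (-0.32 and -0.29). Atp2b1 was also called without resilient pool 1 (-0.28), and Rcan2 (-0.23) without resilient pool 3 (-0.33). Ppp3r1 differed by -0.02, with an interval from -0.32 to 0.28 that leaves differences of either sign. The median of the 10 was -0.13, and that of all genes 0.01. Scaling to the recovered reads moved the differences by a median of 0.08 over all genes in this comparison.

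Wider lists of calcium signaling genes were described in the same way, against the 9.28% of all genes called lower and 9.65% called higher in susceptible pools, and the 9.04% and 8.65% in resilient pools. Of 16 measured genes of calcineurin and its regulators, 5 were called lower and 1 higher in susceptible pools, and 5 lower and 0 higher in resilient pools, with median differences of -0.22 and -0.33. Of 18 genes of calmodulin and the CaM kinases, 7 were called lower and 2 higher in susceptible pools, and 4 lower and 1 higher in resilient pools (medians -0.17 and -0.10). The 7 became 4 without susceptible pool 2, and the 4 became 1 without resilient pool 4, 2 without resilient pool 2 and 7 without resilient pool 3. Of 15 calcium pumps and exchangers, 3 were called lower in susceptible and 1 in resilient pools, and 0 higher (medians -0.11 and -0.08). These counts include the genes of each list that are among the 10. The exchanger gene Slc24a2 was called lower in susceptible pools (-0.31, SE 0.09, adjusted p = 0.0524 in limma), but not with voom on the recovered reads (-0.24) or after quantile normalization (-0.20).

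Camk2n1, which encodes an inhibitor of CaM kinase II, was the gene of these lists with the smallest p in both comparisons. It was 1.14 lower in susceptible pools (SE 0.18, adjusted p = 0.00869) and 0.74 lower in resilient pools (SE 0.17, adjusted p = 0.0331), from a mean of 9.78 log2 CPM in controls. Against resilient pools Camk2n1 differed by -0.40 in susceptible pools (adjusted p = 1.00) and was called. That call was lost in 8 alternatives, among them quantile normalization (-0.27) and leaving out susceptible pool 2 (-0.26) or 3 (-0.29) or resilient pool 5 (-0.29). Fkbp1a, whose protein is the binding partner through which the drug FK506 inhibits calcineurin, was called lower in susceptible (-0.56, SE 0.13, adjusted p = 0.0245) and resilient pools (-0.43, SE 0.12, adjusted p = 0.0645). In resilient pools, the calcineurin regulators Rcan3 (-0.38, adjusted p = 0.0560) and Rcan1 (-0.44, adjusted p = 0.158) were called lower, the latter not without control pool 5 (-0.38), resilient pool 1 (-0.36) or resilient pool 2 (-0.34) and not with voom on the recovered reads (-0.35).

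Camk1, another CaM kinase gene, was called in the opposite direction, 0.46 higher in susceptible (SE 0.14, adjusted p = 0.0692) and 0.30 higher in resilient pools (SE 0.13, adjusted p = 0.199). The single gene of the calcineurin list called in susceptible against resilient pools was Nfatc4, a transcription factor that calcineurin activates. Its mean was 0.81 log2 CPM in susceptible and -0.11 in resilient pools (difference 0.92, SE 0.44, adjusted p = 1.00). The call of Nfatc4 was lost in 14 alternatives, and its difference was 0.59 without resilient pool 2.

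Genes of calcium release and store-operated entry showed 1 call in each direction of 16 in susceptible pools and 1 call lower in resilient pools. The lower one in both was Stim2, an endoplasmic reticulum sensor that opens store-operated channels, with -0.50 in susceptible (SE 0.12, adjusted p = 0.0322) and -0.45 in resilient pools (SE 0.11, adjusted p = 0.0492). Of 10 calcium buffers and sensors, 2 were called lower in susceptible pools and 1 in resilient pools, with a median of -0.29 in both. With 1 pool left out the counts of buffers ran from 0 to 3 in susceptible pools (0 without susceptible pool 2) and from 0 to 4 in resilient pools (0 without resilient pool 2, 4 without control pool 4), and those of lower release genes from 1 to 3 and from 1 to 4 (4 without resilient pool 3). Among 15 subunit genes of voltage-gated calcium channels, 1 was called higher and 0 lower in either defeated group, with medians of 0.02 and 0.00. That gene was Cacna2d2, an auxiliary subunit, at 0.35 in susceptible (SE 0.10, adjusted p = 0.0649) and 0.36 in resilient pools (SE 0.10, adjusted p = 0.0573). The susceptible call of Cacna2d2 was lost without susceptible pool 2 (0.26), and the count of 1 became 3 without susceptible pool 4.

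**Figure D3:**
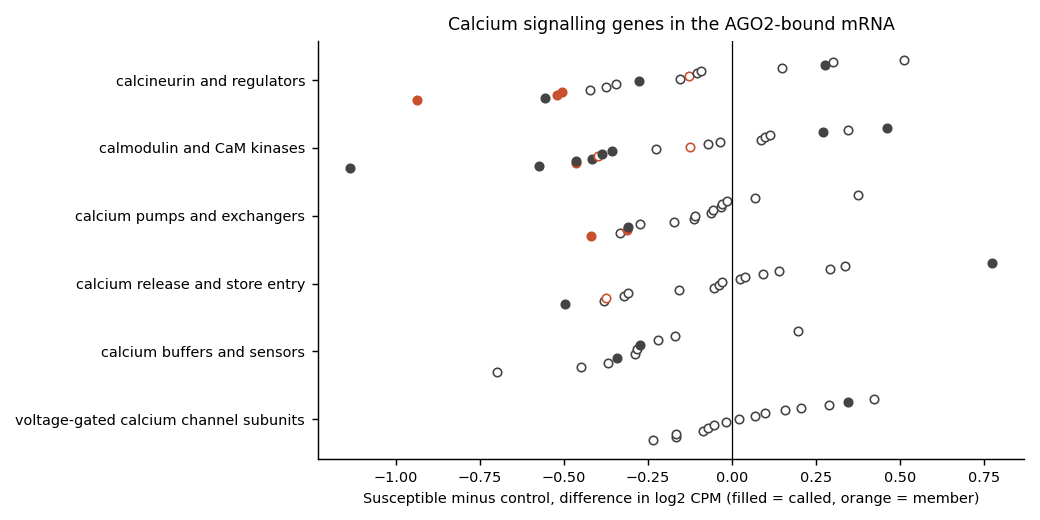
Difference in mean log2 CPM between susceptible and control pools (horizontal axis) for each measured gene of 6 calcium signaling lists (rows), with genes ordered within a row. Filled points were called, and the 10 genes described here are in orange. Calls lie mostly to the left of 0 for calcineurin (5 of 6 calls) and for the CaM kinases (7 of 9 calls), where Camk2n1 at -1.14 is the leftmost, and the channel subunits have 1 call, on the right.

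Over the 14 pools, the genes whose log2 CPM followed Ppp3ca most closely were Pou3f3 (Pearson r = 0.960), 1700003D09Rik (0.951), Celf1 (0.949), Foxp1 (0.948) and Cplx2 (0.941). Of the 10 genes, Atp2b2 came closest to Ppp3ca (r = 0.917, rank 15 of all genes), then Atp2b1 (0.885, rank 40), Camk2a (0.874, rank 46) and Ppp3r1 (0.809, rank 157). Ppp3cb was the least like Ppp3ca (r = 0.408, rank 3238). These coefficients describe pools that share their groups and library scaling, and no test goes with them.

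Some markers of cell types that a BNST dissection can hold also differed between the groups. In susceptible pools 9.28% of all genes were called lower and 9.65% higher, and in resilient pools 9.04% and 8.65%. All 5 neuronal markers were lower on average in both defeated groups, with 4 of 5 called in susceptible and 1 of 5 in resilient pools, and their summed level ranged from 2098 to 2328 CPM in controls, from 1893 to 2072 in resilient and from 1471 to 2006 in susceptible pools. The 3 markers of GABAergic neurons, the main neurons of the BNST, summed to 651 to 722 CPM in controls, 602 to 716 in resilient and 591 to 712 in susceptible pools, with 1 of 3 called lower in susceptible pools. Markers of striatal projection neurons, which lie next to the BNST, were lower on average for 7 of 7 genes in both groups, with 2 of 7 called in each. Their sum ranged from 1770 to 2875 CPM in controls, from 803 (pool 2) to 3329 (pool 3) in resilient and from 862 (pool 3) to 2414 (pool 1) in susceptible pools. Resilient pool 3 was the highest resilient pool for 6 of the 10 genes (Ppp3cb, Ppp3r1, Camk2a, Camk2b, Camk4 and Itpr1), and susceptible pool 1 the highest susceptible pool for 7 of the 10 genes. Oligodendrocyte markers summed to 3333 to 5061 CPM in controls, 2099 to 4235 in resilient and 2017 to 3445 in susceptible pools. Of these 5 markers, 1 was called higher and 1 lower in susceptible pools (median difference -0.03). In resilient pools 1 was called higher and 0 lower (median difference 0.12), so the sums do not describe every marker of the list. Choroid plexus markers summed to 32.9 to 188, 23.2 to 137 and 12.3 to 60.4 CPM, and 5 of 5 were called lower in susceptible pools. Astrocyte markers ranged from 319 to 366 CPM in controls and from 296 to 344 in susceptible pools, microglial markers from 96.5 to 119.8 and from 84.5 to 129.0, and endothelial markers from 88.6 to 119.9 and from 70.2 to 95.1. In susceptible pools, 1 of 4 astrocyte markers was called higher and 1 lower, and the same held for the 4 microglial markers. Of the 3 endothelial markers, 1 was called lower there. Every marker of these lists was measured. Of 4 markers of cortical and hippocampal excitatory neurons 3 were measured, and their sum was 23.4 to 60.1 CPM over all pools. The part of cell composition in the differences of the 10 genes was not tested.

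**Figure D4:**
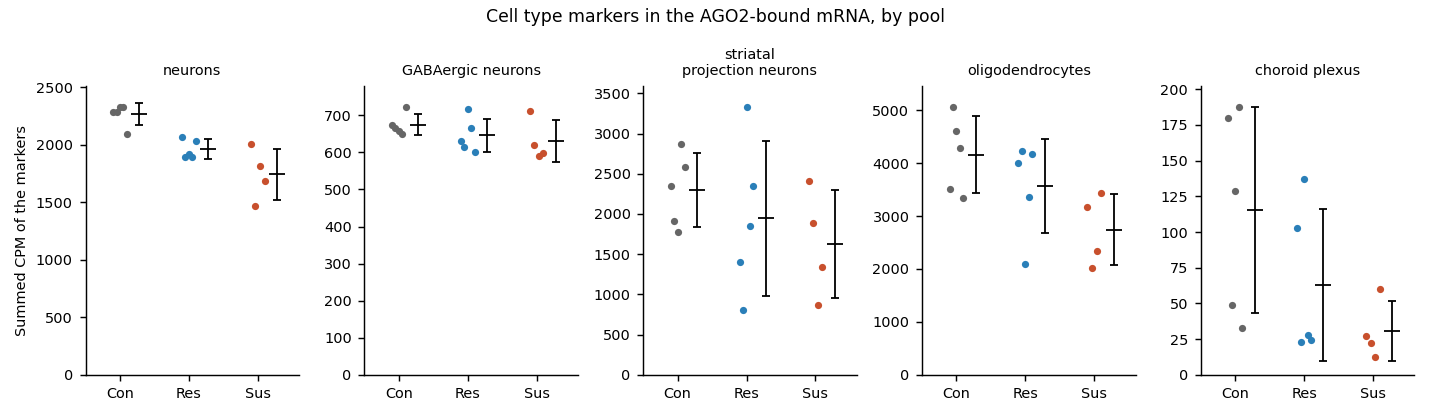
Summed CPM (vertical axes, from 0) of the markers of 5 cell types in the AGO2-bound mRNA, by pool, with the group mean and 1 SD beside the points. Neuronal markers lie between 2098 and 2328 CPM in controls and between 1471 and 2006 in susceptible pools, and resilient pool 3 has the highest sum of striatal projection neuron markers (3329).

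The miRNAs paired with Ppp3ca, Camk2a and Rcan2 are given as levels only, since the study made these pairs from the same libraries. miR-99b-5p stood at 12.98, 12.73, 12.92, 12.92 and 12.76 log2 CPM in the control pools, at 12.60, 12.60, 12.42, 12.72 and 12.83 in the resilient pools and at 12.05, 12.26 and 12.85 in susceptible pools 1, 2 and 4. Susceptible pool 4 lay within the control range of this miRNA and the other two below it. miR-92b-3p had means of 15.38 ± 0.18 in control (SD, n = 5), 15.02 ± 0.30 in resilient (n = 5) and 15.01 ± 0.07 log2 CPM in susceptible pools (n = 3), and all 3 susceptible pools were below all controls. miR-1982-3p was far less abundant, at 2.83 ± 0.60, 1.57 ± 0.92 and 1.41 ± 0.32 log2 CPM, and so was miR-7667-3p, at -1.82 ± 1.47, -0.70 ± 1.83 and -3.35 ± 0.37. The susceptible mRNA pools numbered 1, 2 and 4 had Ppp3ca at 9.23, 8.26 and 8.63 log2 CPM. The labels do not state that miRNA and mRNA libraries of the same number come from the same pool.

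In blood, the 7 measured genes were compared in both strains. For 2 D2 mice the name of the data column gives the other group than the label, 1 labeled control and 1 labeled susceptible. They were kept by label, and results that involve D2 mice were also computed by column name and, chosen after seeing the data, without both mice. Scaling to the recovered reads moved the median of all genes by -0.18 in B6 resilient mice against controls, by -0.15 in B6 susceptible mice against controls and by -0.17 in B6 against D2 controls, and differences of that size depend on the scaling. The 4 blood libraries with the most reads relative to the library size implied by the deposited values also had the 4 highest levels of Ppp3cb (6.51 to 6.72 log2 CPM). The part of library composition in the blood values was not tested.

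Blood levels per kilobase were highest for Ppp3r1 (12.2 ± 1.45 CPM per kilobase in B6 controls), followed by Ppp3ca (8.94 ± 0.804), Ppp3cb (7.51 ± 1.5), Itpr1 (4.55 ± 0.631), Atp2b1 (3.69 ± 0.268), Camk4 (2.83 ± 0.904) and Camk2b (0.189 ± 0.0808). Ppp3ca and Ppp3cb overlapped, as did Ppp3cb with Itpr1, Itpr1 with Atp2b1 and Atp2b1 with Camk4, whereas every value of Camk2b was below those of Camk4. In contrast to AGO2-bound mRNA of the BNST, where Ppp3ca stood well above Ppp3cb, Ppp3ca and Ppp3cb had similar levels in blood. The study used an mRNA kit for the AGO2 libraries and a total RNA kit for blood, so preparation differs along with tissue. Camk2b had 3 to 49 reads per library, and its values there are the least precise.

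Defeat was followed by no call among the 7 genes in blood. None was called in B6 resilient mice against controls, where 2.11% of all genes were called, and 0 of the 7 had an unadjusted p under 0.05 in limma. None was called in B6 susceptible mice against controls, where the share of all genes was 4.50%, nor in B6 susceptible against resilient mice, with 2.03%. In D2 susceptible mice against controls the count was 0 of 7, where 1.57% of all genes were called, and 0 of 7 in the test of whether the susceptible effect differs between B6 and D2, where 5.37% were called. The smallest unadjusted p of limma over these comparisons and genes was 0.0979, for Ppp3r1 in B6 susceptible against resilient mice (0.21, 95% interval -0.04 to 0.45, exact permutation p = 0.119). Ppp3r1 was called there without B6 susceptible mouse 4 (0.28), and Camk2b (0.55) without B6 susceptible mouse 5 (0.90). Both D2 counts were also 0 by column name and without both mice.

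Of the genes called in AGO2-bound mRNA, 3 were measured in blood. Ppp3ca in blood differed from B6 controls by -0.03 in both resilient (95% interval -0.26 to 0.19) and susceptible mice (-0.26 to 0.20). Ppp3r1 differed by -0.17 in resilient (-0.42 to 0.07) and by 0.03 in susceptible mice (-0.22 to 0.28). Atp2b1 differed by -0.22 (-0.49 to 0.05) and -0.21 (-0.49 to 0.06), and it passed the criteria without B6 resilient mouse 4 (-0.30) or 5 (-0.31), and in the susceptible comparison without B6 susceptible mouse 1 (-0.28). The intervals of Camk2b were wide, with -0.65 in resilient (-1.51 to 0.20, and called at -0.91 without B6 resilient mouse 5) and -0.10 in susceptible mice (-0.95 to 0.75).

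The sample names of B6 mice begin with EC3 or EC4, and within these sets the differences often took opposite signs. In resilient mice against controls, Atp2b1 differed by -0.47 among the EC3 mice (3 against 2) and by 0.13 among the EC4 mice (2 against 3), Camk4 by -0.58 and 0.33, Itpr1 by -0.37 and 0.22, Ppp3ca by -0.17 and 0.12, and Ppp3cb by 0.57 and -0.37. Ppp3r1 differed by -0.01 and -0.32. In susceptible mice against controls, Atp2b1 differed by -0.05 among EC3 and by -0.32 among EC4 mice, and Ppp3cb by -0.13 and 0.38. D2 mice were spread over 3 such sets with 1 control or 1 susceptible mouse in each, named ED3, ED4 and ED6. The ED4 set compares 3 susceptible mice with 1 control. That control and 1 of the 3 are the 2 mice whose column name gives the other group. Differences within ED4 therefore rest on the labels of these 2 mice, and they were not computed by column name. Grouped by label, Ppp3ca differed by -0.14, -0.18 and -0.15 in susceptible mice of the 3 sets. Atp2b1 (-0.05, -0.18 and -0.0093) and Camk2b (1.12, 0.13 and 0.66) also kept 1 sign. Ppp3cb (0.14, 0.78 and -0.06), Ppp3r1 (-0.28, 0.19 and -0.42), Camk4 (0.46, -0.17 and 0.10) and Itpr1 (0.08, -0.41 and -0.01) did not.

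The strains themselves differed. Camk4 (CaM kinase IV, which T cells express as well) stood at 3.02, 3.83, 2.69, 3.07 and 3.14 log2 CPM in B6 control mice and at 1.51, 1.86, 1.84, 1.93 and 1.83 in D2 control mice. Every B6 mouse was above every D2 mouse. Camk4 was 1.36 higher in B6 controls (SE 0.22, 95% interval 0.91 to 1.81, adjusted p = 6.03e-05, exact permutation p = 0.00794). The defeated mice, with 2.62 to 3.51 log2 CPM in B6 resilient, 2.94 to 3.89 in B6 susceptible and 1.41 to 2.12 in D2 susceptible mice, kept to the levels of their strain. Some markers of blood cell types were also called between the strains' controls, where 15% of all genes were called lower in B6 and 11.4% higher. With these shares, 1 call among 4 markers does not stand apart from all genes. The 5 T cell markers summed to 95.3 to 127.7 CPM in B6 and 123.5 to 174.3 CPM in D2 controls, with 2 of 5 called lower in B6, and the 4 B cell markers to 621 to 874 and 391 to 755 CPM, with 4 of 4 called higher in B6. Platelet markers summed to 1414 to 5358 and 3311 to 12805 CPM, with 3 of 5 called lower in B6, and 2 of 5 neutrophil markers were called lower (median -0.75). Red blood cell markers were called higher in B6 for 2 of 4 genes (median 0.70) and NK cell markers for 1 of 4 (median 0.28), and 1 of 4 monocyte markers was called lower (median -0.27). The part of blood composition in the difference of Camk4 was not tested.

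Itpr1 stood at 6.38, 6.58, 6.23, 6.11 and 6.55 log2 CPM in B6 controls and at 6.77, 7.27, 6.62, 7.00 and 6.33 in D2 controls, with 1 D2 mouse among the B6 values. It was called 0.43 lower in B6 (SE 0.16, adjusted p = 0.0681, exact permutation p = 0.0556), but not without D2 control 2, 1 of the 2 mice with disagreeing names, or without both of them (-0.31 each). The call was also lost with voom on the recovered reads (-0.60) and after quantile normalization (-0.39). Atp2b1 was called 0.29 lower in B6 (SE 0.13, adjusted p = 0.157, exact permutation p = 0.0159), with 5.70 to 5.95 log2 CPM in B6 and 5.90 to 6.29 in D2 controls. The call of Atp2b1 was lost by column name (-0.27), without both mice (-0.26), with voom on the recovered reads (-0.46), after quantile normalization (-0.24) and when any of 6 mice was left out (-0.29 to -0.24). Ppp3r1 was called 0.27 lower in B6 (SE 0.12, adjusted p = 0.150, exact permutation p = 0.0556), a call that was lost when any of 6 mice was left out (-0.25 to -0.22), after quantile normalization (-0.20) and on the scale of log2(CPM + 1) (-0.26).

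Ppp3ca was 0.25 higher in B6 than in D2 controls (SE 0.11, adjusted p = 0.144, exact permutation p = 0.0476), just under the minimum fold, and was called by column name (0.30) and without both mice (0.26). Ppp3cb (0.35, SE 0.23) and Camk2b (0.16, SE 0.41) were not called. In sum 4 of the 7 genes were called between the control groups, where 26.4% of all genes were called, with 3 lower in B6 (15% of all genes) and 1 higher (11.4%). The adjusted p of Camk4 was under 0.05, as it was for 6.71% of all genes that were higher in B6, and 5.59% of all genes had every B6 control above every D2 control. The count of 4 was 2 with voom on the recovered reads and 2 after quantile normalization, and it was 4 by column name and 3 without both mice. Names of B6 and D2 mice start differently throughout, so strain and name set cannot be told apart.

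**Figure D5:**
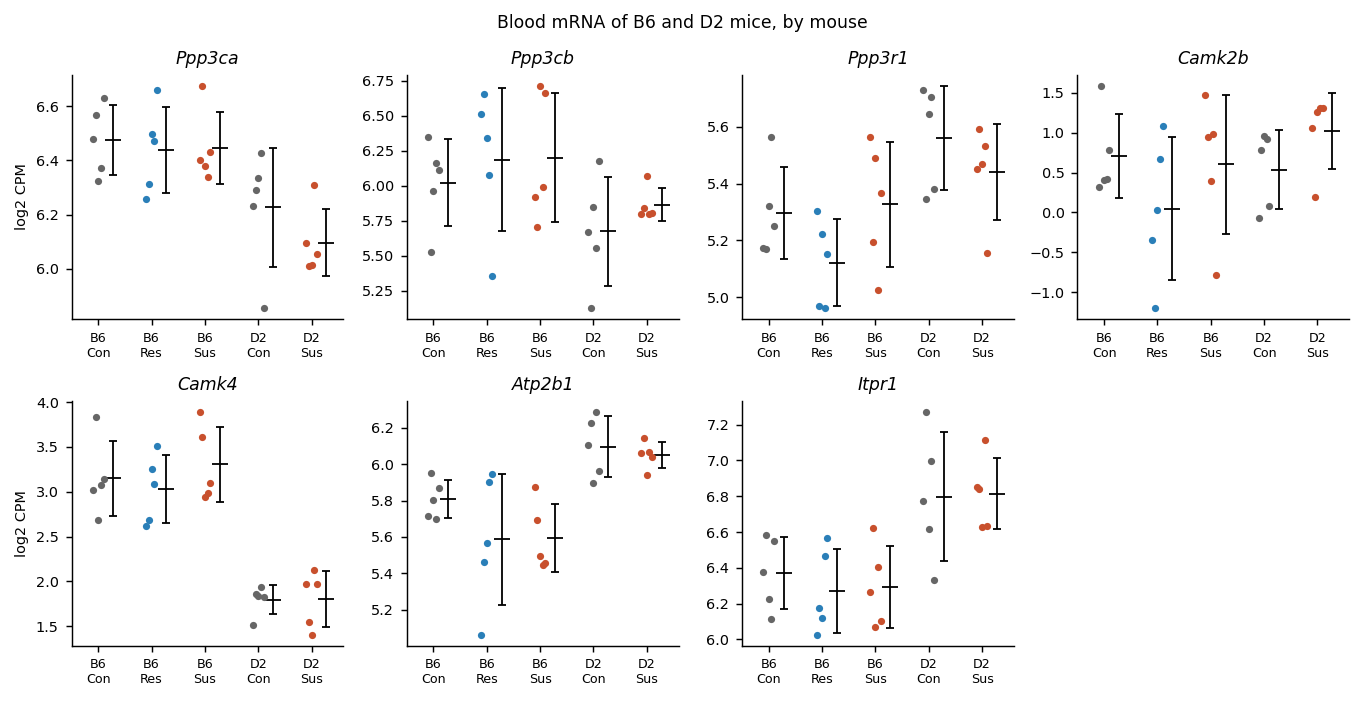
Level of the 7 measured genes in blood mRNA (vertical axes, log2 CPM, each with its own range that does not start at 0) in B6 control, resilient and susceptible mice and D2 control and susceptible mice, 5 each, grouped by label. Points are mice, and the bars give the group mean with 1 SD. Camk4 lies above 2.6 in every B6 mouse and below 2.2 in every D2 mouse, and the control and defeated groups of a strain overlap for all 7 genes.

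Of the wider lists, 9 calcium pumps and exchangers were measured in blood, and 6 of them were called lower in B6 controls than in D2 controls, where 15% of all genes were, with a median difference of -0.51 (-0.01 over all genes). Slc8a1, a sodium/calcium exchanger, was 0.95 lower in B6 (SE 0.14, adjusted p = 2.85e-05). Platelet markers were lower in B6 controls as well (3 of 5 called, median -1.14), and their part in the pump and exchanger values was not tested. Of 13 genes of calmodulin and the CaM kinases, 1 was called higher (Camk4) and 2 lower in B6. The lower ones were Camkk1, a kinase that activates Camk4 (-2.41, SE 0.34, adjusted p = 9.37e-06, with 7 to 39 reads per B6 control and 55 to 194 per D2 control), and the calmodulin gene Calm2 (-0.92, SE 0.20, adjusted p = 0.00161). Cacna1e, a calcium channel subunit gene, had 173 to 246 reads in B6 controls and 0 to 8 in D2 controls, and its adjusted p was 3.13e-09. Reads of both strains were aligned to GRCm38. The part of sequence differences between the strains in this and the other strain differences was not tested.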

How the data were processed

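AGO2-bound mRNA of BNST pools and blood mRNA of single mice were sequenced by the study from stranded libraries. Reads were aligned with STAR to GRCm38 and counted per gene with HTSeq, and the deposited values are log2 CPM, which the authors computed with voom after removing genes of low level. The cohort adjustment that the study describes for AGO2 mRNA is not in these values and was not repeated here, since the labels do not give the cohorts. The AGO2 miRNA values, also deposited as log2 CPM, were used as levels for 13 pools. Reads were recovered from the log2 values, and 100% of them were whole within 1e-04 reads.

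Differences were fitted with limma 3.58.1 in R 4.3.3 on the deposited values of all groups of a table in 1 model, with a mean-variance trend and no covariates. Permutation tests were also run in R, and figures were made in Python 3.11.15 with matplotlib 3.10.9. Calls needed p under 0.05 and a fold of at least 1.2, and p-values were adjusted over all 16587 or 13084 genes. The depth was 3701281 to 10659882 reads per AGO2 pool and 9751603 to 15878495 per blood library, and counting error is largest for Camk2b in blood. The fit was tested on simulated data. The genes described, the wider lists and the markers were chosen with earlier results of these data known. Beyond the 10 genes, the text names per comparison up to 6 (AGO2) or 4 (blood) called genes of the wider lists, those with the smallest p, and the 5 genes most like Ppp3ca. Positions and UTRs came from GENCODE on GRCm38 and miRNAs from RefSeq. Alternatives were voom on the recovered reads, quantile normalization, log2(CPM + 1), sample weights, no trend, a minimum mean of 2 log2 CPM, only the groups compared, blocks by replicate number or by the start of sample names, groups by column name, and leaving out each sample. Leaving out both D2 mice with disagreeing names was added after seeing the data. Blood miRNA was not used here.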

Additional observations from a re-analysis of the deposited data

Results flagged for a closer look

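Among 73 groups of pools or mice tested for a sample far from the others, which chance gives in about 1 of 20 groups, 6 had one. In AGO2-bound mRNA this was the lowest resilient value of Ppp3cb (6.42 log2 CPM, pool 1). In blood they were the highest B6 susceptible value of Ppp3ca (6.68), the highest D2 susceptible values of Ppp3ca (6.31) and Ppp3cb (6.07), the lowest D2 susceptible value of Camk2b (0.19) and the lowest D2 control value of Camk4 (1.51).

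The susceptible effect in blood was called as different between B6 and D2, by the interaction term in limma, for 6 genes of the wider lists and for 0 of the 7 genes, where 5.37% of all genes were called. For the named ones, B6 minus D2 was 0.58 for Stim1, 0.99 for Atp2a3, 1.30 for Slc24a3 and 0.75 for Fkbp1a, with an adjusted p of 0.918 for each. Platelet markers differed in the same direction, with 4 of 5 called and a median of 1.27, and their part in these differences was not tested.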

How the results depend on the processing

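Calls of Ppp3ca and Ppp3r1 against control pools were lost under no alternative run. Of the comparisons of single members under other settings, 550 kept direction and call, 12 lost and 12 gained a call and 24 changed sign. With 1 sample left out these were 1365, 18, 29 and 58. The cause of these changes was not tested.

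With an adjusted p under 0.05, 2 genes in susceptible AGO2 pools became 0 without trend, 5 with sample weights or with only the groups compared and 4 with the minimum level, and 0 genes in resilient pools became 1 with sample weights or the minimum level. Replicate numbers were shared without a stated pairing, and correlations of 13 same-numbered pairs ran from -0.17 to 0.14. No pairing by number was seen in these values, but 13 pairs from groups of this size cannot exclude a weak one. The labels do not give the cohorts that the study adjusted for, so a shared cohort could not be checked. With the replicate block, 5 genes were called and 1 had an adjusted p under 0.05 in susceptible pools, and 3 and 0 in resilient pools. Susceptible against resilient pools gave 1 call with sample weights. In that comparison signs turned for Ppp3r1 (0.029 with voom on recovered reads, 0.0032 after quantile normalization), Camk2b (0.025) and Itpr1 (0.0031, both after quantile normalization).

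In blood, B6 against D2 controls gave 2 calls with voom or quantile normalization, and 4 adjusted p under 0.05 with sample weights, against 1. Signs of uncalled values turned as follows. Sample weights gave 0.014 for Camk4 in resilient B6 mice, -0.059 for Ppp3r1 in susceptible B6 mice, and -0.0055, -0.073 and -0.075 for Ppp3ca, Ppp3cb and Atp2b1 in B6 susceptible against resilient mice. Voom gave -0.026 for Ppp3cb in resilient and -0.13 for Ppp3r1 in susceptible B6 mice, -0.046 for the median and Camk4 and -0.037 for Itpr1 in susceptible D2 mice, and -0.043 for the median and Camk2b between strains. Quantile normalization gave -0.042 for Ppp3r1 in susceptible B6 mice, -0.018 for Atp2b1 in susceptible against resilient mice and -0.0026 for the interaction of Ppp3ca. The minimum level gave medians of 0.0015 in susceptible B6 mice, -0.019 in susceptible D2 mice, -0.0089 between strains and 0.046 for the interaction. The name start as a block gave -0.0070 for Atp2b1 in B6 susceptible against resilient mice, -0.081 for the median and -0.14 for Itpr1 in susceptible D2 mice, and 0.062 for the median and Itpr1 in the interaction. Column names gave -0.011 for the median and -0.099 for Ppp3cb in susceptible D2 mice, and -0.010 for Ppp3ca and 0.28 for Ppp3cb in the interaction. Without both D2 mice, chosen after seeing the data, the interaction was 0.065 for the median and 0.12 for Ppp3cb.

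With each sample left out in turn, calls ran from 2 to 5 (adjusted, 0 to 2) in resilient AGO2 pools, with adjusted calls of 0 to 5 in susceptible pools and calls of 0 to 3 between them. In blood calls ran from 0 to 2 in resilient B6 mice, from 0 to 1 in susceptible B6 mice and in susceptible against resilient mice, and from 2 to 4 between strains (adjusted, 1 to 2). Uncalled differences that took both signs are given by range. Camk2b ran from -0.15 to 0.077 in resilient pools. Susceptible against resilient pools ran from -0.066 to 0.061 for Ppp3cb, -0.12 to 0.073 for Ppp3r1, -0.20 to 0.025 for Camk2b, -0.23 to 0.075 for Camk4 and -0.27 to 0.11 for Itpr1. Resilient B6 mice ran from -0.090 to 0.011 for Ppp3ca and -0.24 to 0.046 for Camk4, and susceptible B6 mice from -0.086 to 0.022 for the median, -0.086 to 0.011 for Ppp3ca, -0.027 to 0.11 for Ppp3r1 and -0.32 to 0.25 for Camk2b. Susceptible against resilient B6 mice ran from -0.052 to 0.061 for Ppp3ca, -0.20 to 0.14 for Ppp3cb, -0.12 to 0.096 for Atp2b1 and -0.060 to 0.097 for Itpr1. Susceptible D2 mice ran from -0.079 to 0.063 for the median, -0.071 to 0.11 for Camk4, -0.095 to 0.0023 for Atp2b1 and -0.10 to 0.13 for Itpr1. The median and Camk2b ran from -0.056 to 0.27 between strains. The interaction ran from -0.048 to 0.087 for the median, -0.14 to 0.13 for Ppp3cb and -0.21 to 0.024 for Itpr1. Counts over the wider lists moved by over 1.5 times in 113 cases under other settings, against 799 that did not, and in 181 against 2123 with 1 sample left out. Depth limits Camk2b in blood most.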

Other observations

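In blood of B6 susceptible mice, 3 of 9 calcium pumps and exchangers were called higher than in controls, where 2.98% of all genes were. The count was 0 with sample weights and without B6 control 2, B6 susceptible mouse 1 or B6 susceptible mouse 3, and 1 without B6 control 5. They were Atp2a3, a pump of the endoplasmic reticulum (0.68), Slc24a3, a sodium/calcium exchanger (0.87), and Atp2c1, a pump of the Golgi apparatus (0.66), each with an adjusted p of 0.968 in limma. Stim1, a sensor of calcium stores, was called higher by 0.35 at the same adjusted p. Platelet markers were called higher in the same comparison for 4 of 5 genes, with a median of 0.89, and their part in these values was not tested. In B6 resilient mice Nfatc2, a transcription factor that calcineurin activates, was called lower at -0.79 (adjusted p = 0.985 in limma). Slc8b1, a mitochondrial sodium/calcium exchanger, was called lower in B6 susceptible than in resilient mice (-0.46), and Orai1, a store-operated channel, in D2 susceptible mice against controls (-0.39). Cacna1e was called higher in that D2 comparison, on 0 to 8 reads in controls and 1 to 9 in susceptible mice. Over the alternatives, the adjusted p of limma was at least 0.886 for Slc8b1, 0.491 for Orai1 and 0.380 for Cacna1e. In these 3 comparisons 2.11%, 2.03% and 1.57% of all genes were called, so single calls among the lists do not stand apart from all genes.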
